A study of Mus musculus with 2 samples.

Results

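Type A intercalated cells are acid-secreting cells of the collecting duct system of the kidney. They were selected here by marker counts from single-cell RNA libraries of mouse kidney cortex. A barcode, the tag that stands for 1 captured cell, was kept if it held 1000 or more unique molecular identifiers (UMIs), 200 or more genes and up to 50% mitochondrially encoded UMIs. Among kept barcodes, a type A cell had Atp6v1g3 at 2 or more UMIs per 10000 UMIs of the barcode and 2 or more UMIs of Slc4a1, Aqp6 and Kit together. It also had Slc26a4 below 1 and Slc12a1 below 8 per 10000, and 0 UMIs of Pecam1 and Ptprc. The rule selected 183 of 15488 kept barcodes, which were 111 of 5076 in the PT I-PpoI library and 72 of 10412 in the wild-type library. The study compared a mouse kidney that expressed I-PpoI, a site-specific homing nuclease that cuts both strands of DNA, in the proximal tubule (PT) with a wild-type kidney, both at 16 weeks. Kidney cortex was dissociated with collagenase II and ProNase E at 37 °C, and there was 1 library per group. The labels name no promoter or Cre line for I-PpoI, and no sex or strain for either mouse. The labels state no expression of I-PpoI in the collecting duct.

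The collecting duct is lined by principal cells, which reabsorb sodium and water, and by intercalated cells, which handle acid and base. Type A cells pump protons into the urine with a vacuolar ATPase (V-ATPase) in their apical membrane and return bicarbonate to the blood through the basolateral chloride/bicarbonate exchanger AE1, the product of Slc4a1. Carbonic anhydrase II, the product of Car2, supplies the protons and the bicarbonate. Type B cells secrete bicarbonate through the apical exchanger pendrin, the product of Slc26a4. The forkhead factor Foxi1 is needed for the intercalated fate, and both types also secrete antimicrobial peptides.

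The libraries held 93257620 and 107977310 UMIs (paired values give PT I-PpoI before wild type throughout). Kept barcodes held medians of 11633 and 3344 UMIs, and 19 barcode sequences were kept in both libraries. The feature list had 0 entries for the transgene, so its expression was not read. Levels are given as CPM: a gene's counts were pooled across all cells of 1 class and library and scaled to 1000000 UMIs. Unless another pair is named, a ratio divides the PT I-PpoI level by the wild-type level and is given as log2, with exact 95% intervals in brackets. Because each group was 1 library, no test of the groups could be made, and all intervals cover counting error only, not differences between mice.

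Type A cells were deep in UMIs and rich in mitochondrial RNA. They held medians of 20172 UMIs (2068 to 73596) and 10755 UMIs (1212 to 50211), with 4448 and 3184 genes. Their median mitochondrial shares were 22.4% and 18.8%, below the 26.8% and 25.9% of type B cells. Principal cells, selected by 10 or more Aqp2 UMIs per 10000 and other criteria, had 9.73% and 10.9%. Free RNA, the RNA from broken cells that enters every droplet, was estimated at 3.45% and 15.6% of type A UMIs from genes of the proximal tubule and the thick ascending limb. Scrublet, which looks for droplets that resemble mixtures of cells, marked 58 (1.14%) and 312 (3.00%) kept barcodes as doublets, of which 0 and 2 were type A cells.

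All 5 genes given as markers of type A cells were high in the selected cells of both libraries, and 4 of them had been used to select them, so their levels are a description. Atp6v1g3, the kidney-restricted G3 subunit of the V-ATPase (chromosome 1, 138273738 to 138289462, plus strand, GRCm38), stood at 3353 and 2501 CPM. Slc4a1 (chromosome 11, 102348824 to 102366203, minus strand) stood at 1338 and 1032 CPM. Both were at most 14.1 CPM in principal cells.

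Aqp6, an intracellular water and anion channel of intercalated cells (chromosome 15, 99601400 to 99605477, plus strand), was at 1215 and 1127 CPM. Kit, a receptor tyrosine kinase (chromosome 5, 75574916 to 75656722, plus strand), was at 520 and 381 CPM. Oxgr1, the receptor for alpha-ketoglutarate (chromosome 14, 120019585 to 120042435, minus strand), took no part in the rule and was at 426 and 313 CPM. In type B cells Oxgr1 was at 314 and 316 CPM, so it marked intercalated cells against principal cells (3.58 and 9.44 CPM) but did not separate the 2 intercalated types.

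**Figure D1:**
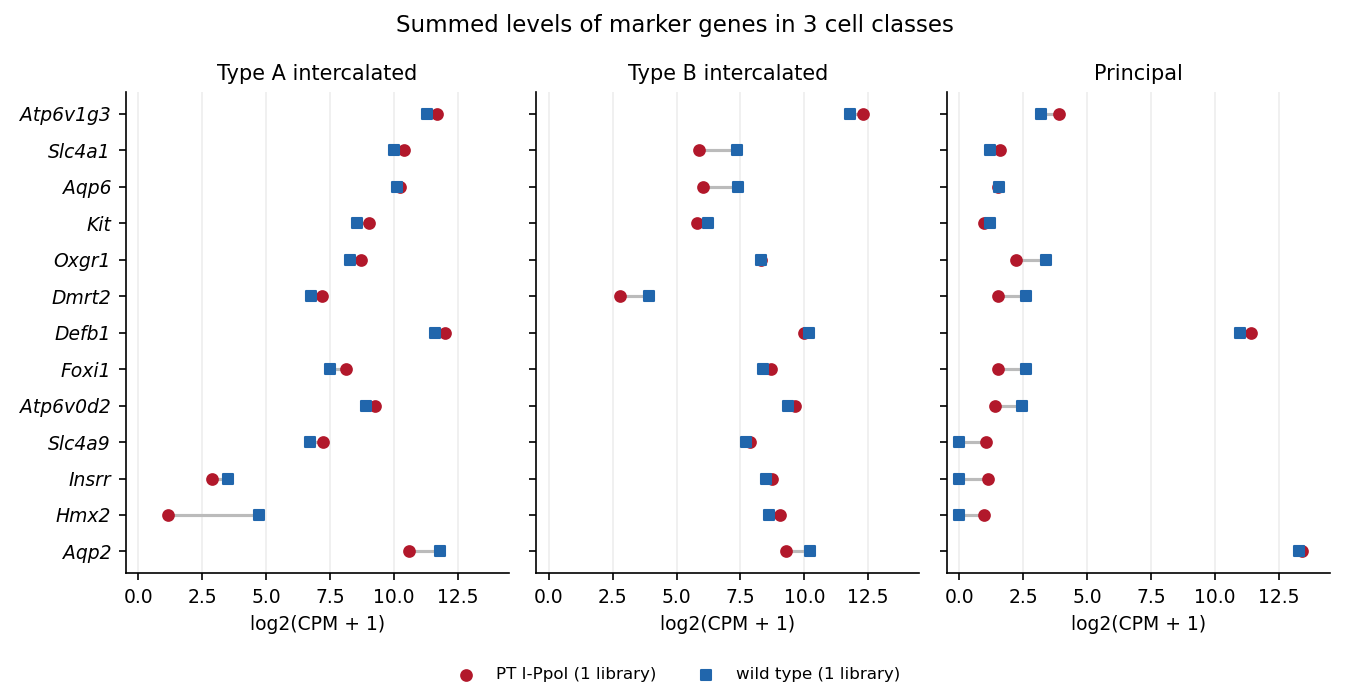
Summed levels of 13 genes (log2 of CPM + 1) in type A, type B and principal cells; circles are the PT I-PpoI library and squares the wild-type library, 1 library each. Slc4a1, Aqp6, Kit and Dmrt2 are highest in type A cells, Insrr and Hmx2 in type B cells, and Aqp2 stands at 1558 and 3574 CPM in type A cells.

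Most selected cells carried the full set of defining markers. All 3 of Slc4a1, Aqp6 and Kit had a UMI in 110 of 111 and 60 of 72 cells, and the rule itself lets no cell lack all of them. The lowest Atp6v1g3 level of a selected cell was 5.50 and 3.42 per 10000, above the threshold of 2. The highest Atp6v1g3 level among barcodes that failed on that gene alone was 1.97 and 0. Barcodes that failed only because Slc4a1, Aqp6 and Kit together gave under 2 UMIs numbered 26 and 103. Those that failed on Slc26a4 alone numbered 44 and 38, with lowest levels of 1.89 and 1.86 per 10000, against a highest level of 0.737 and 0 among selected cells. Slc12a1 alone removed 5 and 0 barcodes, and Pecam1 and Ptprc alone removed 40 and 22.

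Single cells differed several-fold in the acid-secretory genes. Atp6v1g3 had lower and upper quartiles of 18.8 and 50.4 per 10000 (median 37.8) in the PT I-PpoI library, and of 17.2 and 48.2 (median 30.05) in the wild-type library. Slc4a1 had medians of 12.7 and 10.9 and maxima of 38.2 and 45.4. Car2 had medians of 27.7 and 18.5, and was read in 111 of 111 and 71 of 72 cells. Slc26a7, a chloride/bicarbonate exchanger of acid-secreting cells, was read in 15 and 11 cells, with maxima of 6.07 and 12.3 per 10000 (the gene was chosen after its values were seen). Foxi1 was read in 100 and 53 cells, at medians of 2.52 and 1.39.

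A subset of the selected cells also carried RNA of another tubule segment. Aqp2, the vasopressin-regulated water channel of principal cells, had a median of 0.478 and 0 per 10000 over all type A cells but reached 188 and 181. Aqp2 was at 10 or more per 10000 in 15 and 20 cells. Calb1, a calcium-binding protein of the connecting tubule, was at 10 or more in 10 and 4 cells. Slc12a3, the thiazide-sensitive cotransporter of the distal convoluted tubule, was at 5 or more in 4 and 0 cells, and Umod, the uromodulin of the thick ascending limb, was at 10 or more in 3 and 0 cells.

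Together 22 of 111 (19.8%) and 20 of 72 (27.8%) type A cells met at least 1 of these criteria, which were chosen after seeing the spread of these genes. They were deeper than the other type A cells, with median depths of 29698 against 18689 UMIs and 25931.5 against 8454.5 UMIs. They supplied 29.2% and 50.4% of type A UMIs. Their median Atp6v1g3 level was 15.7 against 42.7 per 10000 in the PT I-PpoI library and 12.8 against 39.9 in the wild-type library. Slc4a1 was 9.48 against 13.7 and 6.90 against 12. None of them was marked by Scrublet. Whether they are mixtures of 2 cells or cells with both programmes was not tested. Since these cells weigh differently in the 2 libraries, many results are also given over the 89 and 52 other type A cells. Those were below the limits of these 4 genes but not free of RNA of other segments: among them S100g, a calcium carrier of the connecting tubule, was at 82.2 to 293 per 10000 in 4 PT I-PpoI cells and at 92.7 and 139 in 2 wild-type cells.

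**Figure D2:**
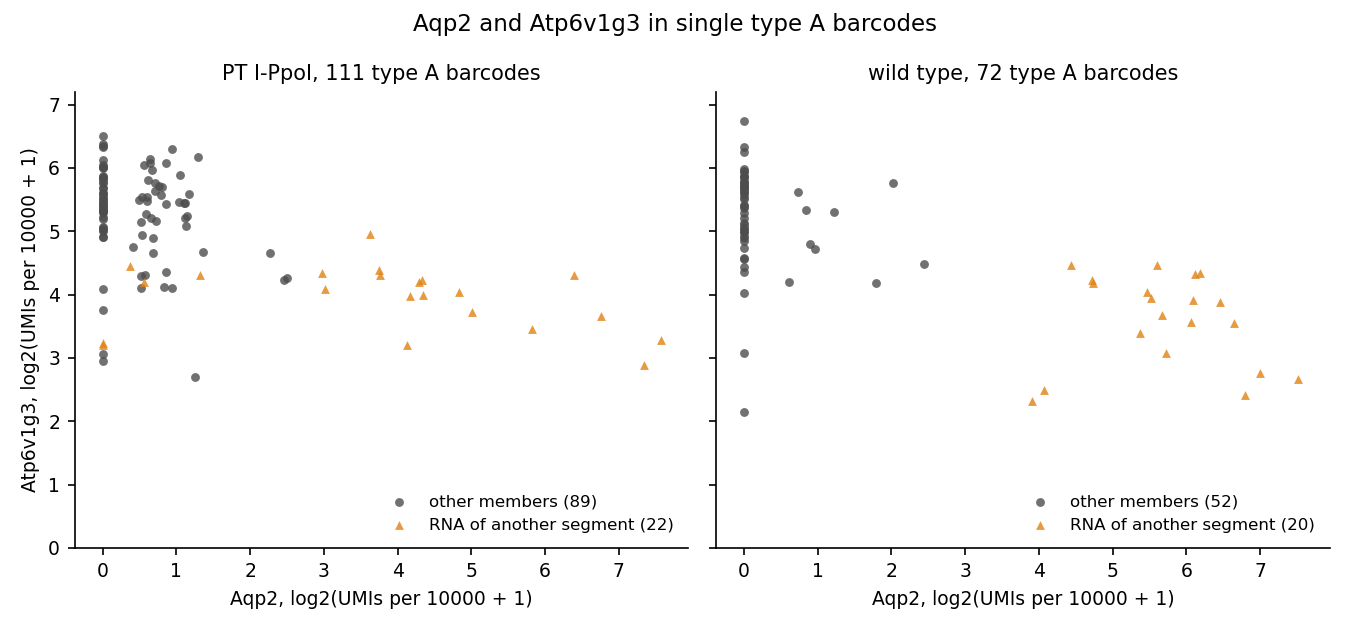
Each point is 1 type A barcode, with Aqp2 on the horizontal and Atp6v1g3 on the vertical axis, both as log2 of UMIs per 10000 + 1; triangles are barcodes with RNA of another segment. The median Atp6v1g3 level of the 22 and 20 triangles is 15.7 and 12.8 per 10000, against 42.7 and 39.9 for the 89 and 52 other barcodes.

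Type A cells made up a larger share of kept barcodes in the PT I-PpoI library, at 2.19% (Clopper-Pearson 1.80 to 2.63) against 0.692% (0.541 to 0.870). All kept barcodes include proximal tubule and immune cells, so the share was also taken among collecting duct cells. Of type A and type B cells together, type A were 42.7% (36.6 to 48.95) of 260 and 40.7% (33.4 to 48.3) of 177, and these intervals overlap. Of type A, type B and principal cells, type A were 15.8% (13.2 to 18.7) of 703 and 19.2% (15.3 to 23.6) of 375. Without the cells with RNA of another segment the shares of type A among type A and B cells were 37.4% and 33.1%, a decrease fixed by removing cells from type A alone. Kept barcodes were deeper in the PT I-PpoI library, and the part of depth in these shares was not tested. Thinned values, from cells selected anew, are given at the end.

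Against type B cells, type A cells had more RNA of a small set of genes beside those of the rule. In both libraries 44 of 2929 genes read (1.5%) were 2-fold or more higher in type A cells and 38 (1.3%) were 2-fold or more lower. A gene was read if it had 50 CPM or more in the higher class and 20 or more UMIs over both classes. The rule separates these classes, so the counts are a description. Thinned to 2000 UMIs, with the cells of each class selected anew, 72 were higher. Without the type A cells with RNA of another segment 37 were higher and 84 lower. Dmrt2, a transcription factor of the doublesex family, was at 144 and 109 CPM in type A cells and at 5.90 and 13.9 CPM in type B cells (log2 4.58 and 2.94). Adgrf5, an adhesion G protein-coupled receptor of intercalated cells, was at 1016 and 825 CPM against 92.1 and 129 CPM (3.46 and 2.67). Mme, the membrane peptidase neprilysin, was at 975 and 725 CPM against 99.2 and 169 CPM (3.30 and 2.10).

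Muc20, a membrane mucin, was 4.95 and 3.40 higher on the log2 scale than in type B cells. Ckb, the brain-type creatine kinase, was 2.57 and 2.24 higher, and Nupr1, a stress-induced chromatin protein, 3.50 and 2.44 higher. Defb1, the antimicrobial beta-defensin, was at 4092 and 3108 CPM in type A cells against 1026 and 1154 CPM in type B cells (2.0 and 1.43). Defb1 was also at 2704 and 2028 CPM in principal cells. Ctsh, a lysosomal cysteine protease, was 2.42 and 1.65 higher than in type B cells.

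A few genes of that set were held by cells with RNA of another segment. Aqp4, the basolateral water channel of principal cells, was 4.82 and 4.51 higher in type A than in type B cells, but 368 of its 370 and all 114 of its 114 type A UMIs came from those cells. Fxyd4, a regulator of the sodium pump in principal cells, was 2.15 and 2.38 higher over all members, and 89 of 2795 and 23 of 2397 of its UMIs lay outside those cells. Gdf15, a secreted stress cytokine, was 1.67 and 2.32 higher, with 4 of 237 and 4 of 264 UMIs outside them. No such cells were removed from type B, where Aqp2 was at 10 or more per 10000 in 26 and 20 cells, so a ratio over type B cells after their removal from type A alone is pushed down by construction for genes of those cells. Under that removal Muc20 was 4.76 and 2.94 higher, Dmrt2 4.83 and 3.43, Adgrf5 3.69 and 3.08 and Mme 3.58 and 2.70.

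Genes lower in type A than in type B cells included known type B markers. Igfbp5, a binding protein for insulin-like growth factors, was at 7.60 and 17.4 CPM against 947 and 776 CPM (−6.92 and −5.44). Insrr, the alkali-sensing insulin receptor-related receptor, was at 6.33 and 10.2 CPM against 423 and 363 CPM. Hmx2, a homeobox factor, had 3 UMIs in PT I-PpoI type A cells and 25 in wild type, of which 92.0% came from 1 cell, against 525 and 390 CPM in type B cells.

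Jag1, a Notch ligand of intercalated cells, was at 53.2 and 36.9 CPM in type A cells against 220 and 196 CPM (−2.04 and −2.39). Car12, a membrane carbonic anhydrase, was at 409 and 401 CPM against 1242 and 1150 CPM (−1.60 and −1.52). Pmp22, a tetraspan membrane protein, Nbea, a neurobeachin scaffold, Enpp2, the enzyme autotaxin, Spink8, a protease inhibitor, Emb, a basigin-like glycoprotein, and Klk1, tissue kallikrein, completed the named genes, with log2 ratios from −4.66 to −1.58 over both libraries. Slc4a9, the basolateral exchanger AE4 usually assigned to type B cells, was at 147 and 106 CPM in type A cells and at 234 and 212 CPM in type B cells, so both types held it.

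**Figure D3:**
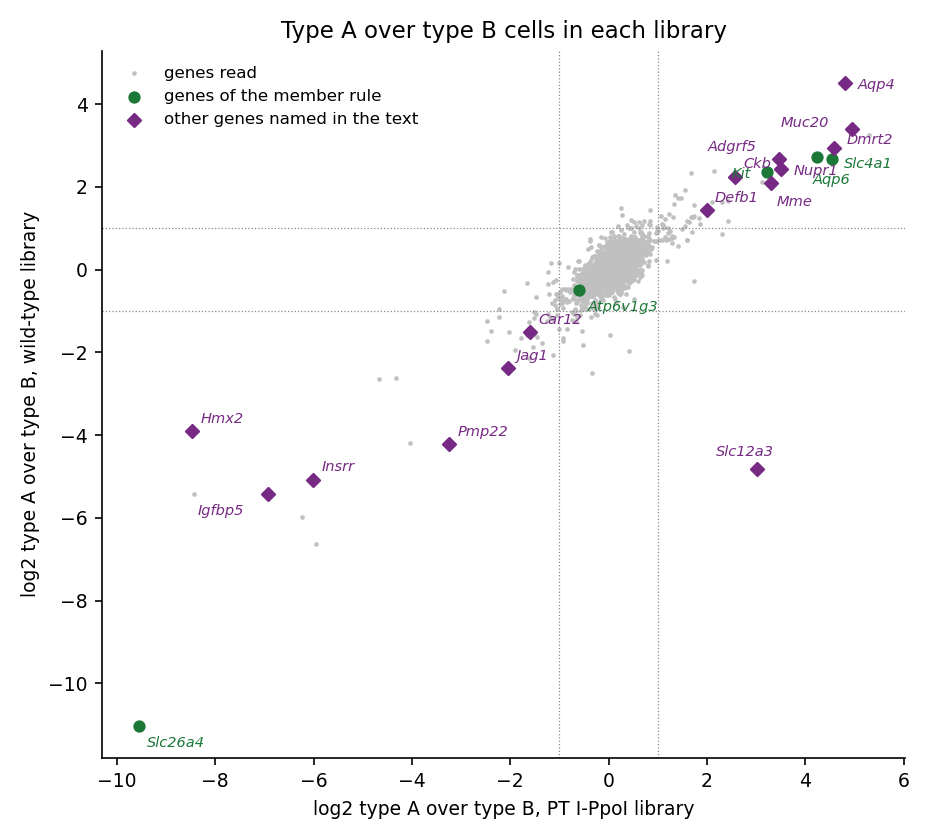
Log2 ratio of type A over type B cells in the PT I-PpoI library (horizontal) and in the wild-type library (vertical) for the genes read; dotted lines mark 2-fold. Genes of the rule are circles; Dmrt2, Muc20, Adgrf5 and Mme lie at the upper right, Igfbp5, Insrr and Hmx2 at the lower left, and Slc12a3 has opposite signs in the 2 libraries.

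Against principal cells the difference was broader, with 139 of 3265 genes read (4.26%) higher and 121 (3.71%) lower in type A cells of both libraries. The lower count depended on the setting, with 147 to 160 genes higher. It was 433 without the type A cells with RNA of another segment and 254 as a mean over cells. After thinning, with the cells selected anew, it was 223. Among lists of genes, 15 of the 19 intercalated identity genes read were 2-fold or more higher and 0 lower, and 10 of the 13 principal cell markers read were lower and 0 higher. The first list holds Atp6v1g3 and the second Aqp2, Aqp3, Fxyd4 and Hsd11b2. These are genes of the rules, so both counts are in part fixed by the selection. Foxi1 was at 280 and 182 CPM in type A cells, 411 and 329 CPM in type B cells and 1.86 and 5.04 CPM in principal cells. Adgrf5 was at 3.58 and 3.15 CPM and Mme at 4.11 and 3.15 CPM in principal cells, giving log2 ratios of 8.12 and 7.90 for Adgrf5 and of 7.87 and 7.71 for Mme. Avpr1a, the vasopressin receptor of intercalated cells, was at 223 and 152 CPM, with 4 and 2 UMIs in principal cells. Hepacam2, an adhesion protein of the immunoglobulin family, was at 185 and 92.2 CPM, with 9 and 2 UMIs in principal cells.

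Eps8, an actin-capping protein, was 8.08 and 5.79 higher in type A than in principal cells on the log2 scale. Pam, the enzyme that amidates peptides, was 6.67 and 5.74 higher. Epb41l2, a membrane skeleton protein, was 7.34 higher in the PT I-PpoI library and 5.82 (4.46 to 8.33) higher in the wild-type library, where principal cells held 3 UMIs. Tmem61, a membrane protein, had 0 UMIs in wild-type principal cells and was at least 81.4-fold higher in type A cells against a floor of 3 counts.

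Lower than in principal cells were Aqp4 (−2.10 and −1.86), Tpd52l1, a trafficking protein (−2.06 and −1.75), Btc, the growth factor betacellulin (−3.21 and −1.64), and Ptges, a prostaglandin E synthase (−2.28 and −1.59). Ranbp3l, S100a6, Akr1b3, Gipc2, Rnf186 and Calb1 were lower as well, with ratios from −2.96 to −1.52. For all of these but S100a6 and Akr1b3, most type A UMIs of both libraries came from the cells with RNA of another segment. Calb1 was among the genes by which those cells were chosen. Btc was at 44.3 and 133 CPM over all type A cells and at 6.56 and 4.13 CPM (11 and 2 UMIs) without those cells.

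The V-ATPase is built from a cytosolic V1 sector that splits ATP and a membrane V0 sector that carries protons. Of 25 genes listed, 17 were read against principal cells, of which 10 were 2-fold or more higher in type A cells and 1 lower. The shares of all genes were 4.26% higher and 3.71% lower. The list holds Atp6v1g3, a gene of the rules for both classes, so the count of higher genes is in part fixed by the selection. The intercalated isoforms led: Atp6v0d2 was at 613 and 480 CPM against 1.59 and 4.41 CPM, and Atp6v1c2 at 365 and 332 CPM against 2.92 and 3.15 CPM in principal cells. Atp6v0a4, the a4 subunit mutated in distal renal tubular acidosis, was at 835 and 679 CPM against 140 and 161 CPM. Atp6v1b1, the B1 subunit also mutated in that disease, was at 492 and 335 CPM against 127 and 122 CPM. The widely expressed subunits Atp6v1f (−0.08 and 0.30) and Atp6v1g1 (−0.07 and 0.14) were near the level of principal cells, and Atp6v0d1, the widely expressed paralog of Atp6v0d2, was lower (−1.77 and −1.10).

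By the median subunit over all members, pump RNA was slightly lower in type A than in type B cells, and both rules ask for the same minimum of Atp6v1g3. The order depended on the cells with RNA of another segment. The summed list was 14442 and 12199 CPM in all type A cells and 17246 and 14602 CPM in type B cells. With those cells removed from type A alone it was 16518 and 15467 CPM, above type B cells in wild type. Of 18 subunits read against type B cells, 0 were 2-fold different, near the 1.5% and 1.3% of all genes, and the medians were −0.18 and −0.21. Atp6v1c2 came closest, at −0.93 in both libraries. For the carriers and enzymes of acid-base transport, 13 were read against type B cells, of which 1 was higher (Slc4a1) and 2 were lower (Slc26a4 and Car12), against 1.5% and 1.3% of all genes. Slc4a1 and Slc26a4 are genes of the rules, which leaves Car12. Rhbg and Rhcg, the ammonia channels, were at 925 and 667 CPM and at 739 and 679 CPM in type A cells, and were 0.69 and 0.54 (Rhbg) and 0.41 and 0.40 (Rhcg) above type B cells.

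Promoter sequences are shown for pump and marker genes that were high together in cells with Foxi1. The forkhead core TGTTTA or its reverse complement TAAACA, which are the same site read on the 2 strands, was searched in RefSeq windows from 250 bases before to 50 after each gene start (GRCm38.p6). It occurred in 21 of 109 (19.3%) windows of genes higher in type A than in principal cells, in 7 of 36 (19.4%) of those higher than in type B cells, and in 4069 of 27025 (15.1%) of all windows. Of the 5 given markers 4 had a window, and 0 of these held the letters. The sequences are 100 bases, from 130 to 31 bases before the RefSeq start and on the plus strand, of a V-ATPase gene that holds the core (in capitals, 98 bases before the start), and of 2 markers that do not, at chr6:83742887-83742986, chr1:138273608-138273707 and chr15:99601070-99601169. A match is a string of letters and not a measured binding site.
Atp6v1b1: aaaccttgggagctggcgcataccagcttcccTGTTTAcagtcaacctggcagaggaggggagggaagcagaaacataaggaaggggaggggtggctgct
Atp6v1g3: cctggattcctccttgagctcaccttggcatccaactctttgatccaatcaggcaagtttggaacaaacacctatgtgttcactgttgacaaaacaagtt
Aqp6: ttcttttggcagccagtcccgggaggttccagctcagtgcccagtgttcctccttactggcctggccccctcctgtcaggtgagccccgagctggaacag

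Of 3264 genes read, 24 (0.735%) were higher and 102 (3.12%) were lower in PT I-PpoI type A cells, and the median ratio of all genes was −0.10. Scaling with TMM factors would add 0.10 to every type A ratio. Over the 89 and 52 cells without RNA of another segment, 31 of 3034 genes (1.02%) were higher and 48 (1.58%) lower, with a median of 0.00. The excess of lower genes did not hold under 2 other settings: thinning to 2000 UMIs gave 121 higher and 111 lower, and a stricter rule gave 70 and 55. Thinning selected the cells anew, as 131 and 74 type A cells. The stricter rule asked for 3 or more UMIs of Slc4a1, Aqp6 and Kit summed and for 0 UMIs of Slc26a4 and Aqp2, which left 44 and 42 cells. Deeper cells meet a limit of 0 UMIs less easily, and 65 of 111 and 29 of 72 cells held an Aqp2 UMI. The part of depth in the values under this rule was not tested. In type B cells 11 of 3069 genes (0.358%) were higher and 64 (2.09%) lower, and in principal cells 25 of 3418 (0.731%) and 46 (1.35%).

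**Figure D4:**
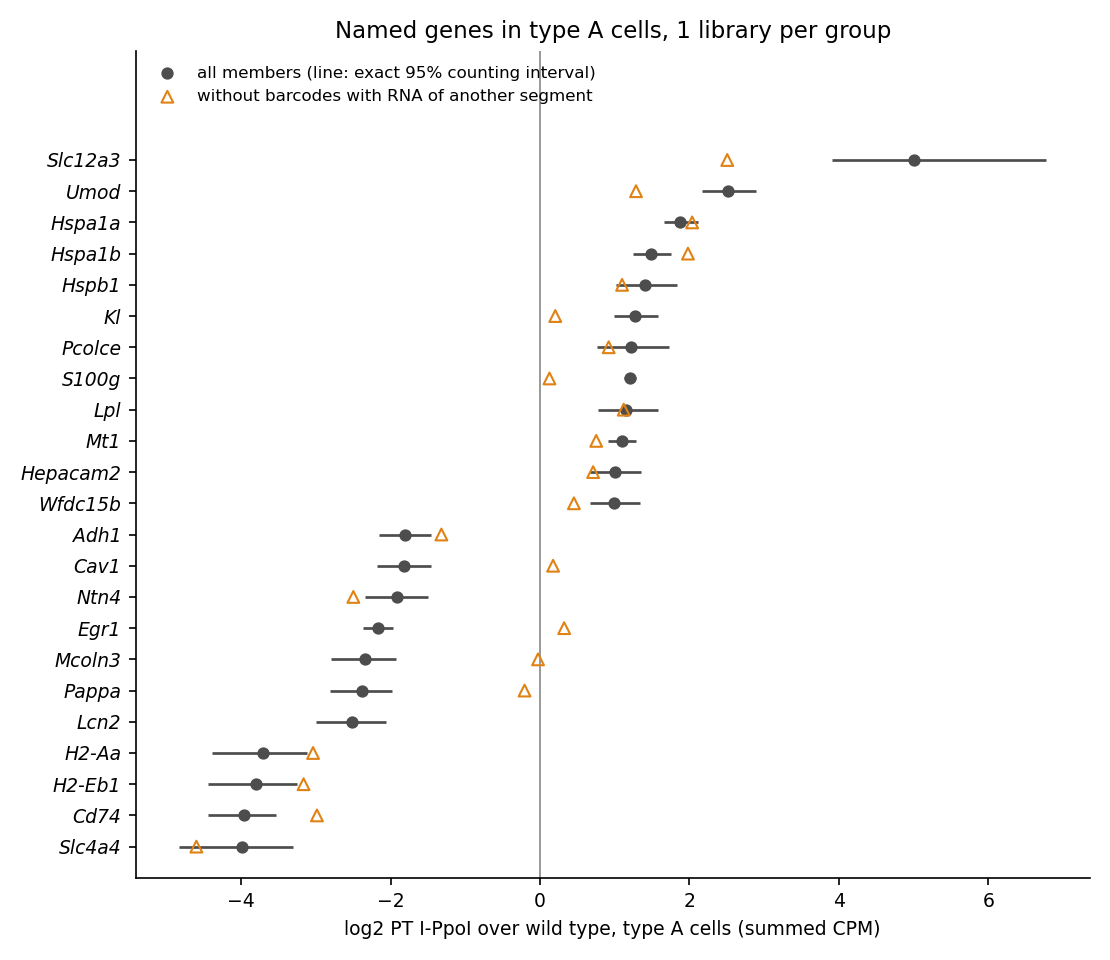
Log2 ratio of PT I-PpoI over wild type in type A cells for genes with the largest and smallest ratios under the naming rule. Circles use all 111 and 72 cells, with lines for exact 95% counting intervals. Triangles use the 89 and 52 cells without RNA of another segment. Hspa1a and Hspa1b stay above 1 in both. The triangles of Egr1, Cav1 and Mcoln3 lie near 0, but Cav1 then held 21 and 5 UMIs and Mcoln3 8 and 2. Lcn2 has no triangle because it then held 1 and 0 UMIs.

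All 5 given markers were higher in PT I-PpoI, by 0.11 to 0.45, and by 0.02 to 0.30 without the cells with RNA of another segment. The rule selected cells by 4 of these 5, Atp6v1g3 among them, in libraries of unequal depth, so these ratios are a description from which nothing is read. Of 17 V-ATPase subunits read, Atp6v1g3 included, 0 were past 2-fold, near the 0.735% and 3.12% of all genes, and their median was 0.26, or 0.05 without those cells. Atp6ap1, an accessory subunit of the pump, was at 302 and 183 CPM (0.72, or 0.60 without them), and Atp6ap2, the prorenin receptor, at 426 and 306 CPM (0.48, or 0.55). Summed over the whole list the pump RNA was 14442 and 12199 CPM, or 16518 and 15467 CPM without those cells.

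Of 20 intercalated identity genes read, 0 were past 2-fold, near the 0.735% and 3.12% of all genes. The list median was 0.33 (0.14 without the cells with RNA of another segment). Foxi1 differed by 0.61 (0.38 to 0.86) and by 0.66 without those cells, against 0.32 in type B cells. Hepacam2 differed by 1.00 (0.67 to 1.35), just under the 2-fold line, and by 0.71 without them. Of 14 acid-base genes read, 0 were higher and 1, Slc4a4, was lower, too few to set apart from the same shares of all genes. Car2 was at 2656 and 1865 CPM (0.51, and 0.54 in type B cells). Of 5 type B markers read in type A cells 0 were past 2-fold, near the same shares of all genes (median 0.45).

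A few heat-shock genes were higher in PT I-PpoI with and without the cells with RNA of another segment. Hspa1a, an inducible chaperone of the HSP70 family (chromosome 17, 34969190 to 34972156, minus strand), was at 667 and 181 CPM, a log2 ratio of 1.87 (1.65 to 2.11), and at 698 and 169 CPM without those cells (2.04). It had a UMI in 103 of 111 and 47 of 72 cells. At an equal depth of 2000 UMIs per cell, with 0 and 3 cells left out, the shares were 64.9% (55.2 to 73.7) and 29.0% (18.7 to 41.2). Hspa1a was also higher in PT I-PpoI type B cells (1.00) and principal cells (2.26), and in thinned T cells it was read in 53.4% and 9.35%. In the free RNA it stood at 592 and 66.4 CPM.

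Hspa1b, the paralog of Hspa1a with a near-identical sequence, so that the split of reads between them is uncertain, was at 427 and 152 CPM (1.49, or 1.98 without those cells). Hspb1, a small heat-shock protein, was at 163 and 61.5 CPM (1.40, or 1.10). Cryab, another small heat-shock protein, was lower, at 305 and 666 CPM (−1.13, or −1.10). Of the 13 heat-shock genes read, 3 were 2-fold higher and 1 lower, against 0.735% and 3.12% of all genes. The list median was 0.06, close to that of all genes.

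The metallothioneins, metal-binding proteins, were higher in PT I-PpoI. Mt1 was at 619 and 289 CPM (1.10, or 0.75 without the cells with RNA of another segment). The free RNA held Mt1 at 1766 and 222 CPM and T cells at 589 and 102 CPM. After free RNA was subtracted the Mt1 ratio was 0.94. Mt2 was at 68.0 and 17.4 CPM (1.93), and held 80 and 3 UMIs in the other cells. Both were higher in PT I-PpoI type B cells (0.59 and 1.14) and principal cells (0.90 and 0.88) as well. Of 19 oxidative stress genes read, these were the only 2 past 2-fold higher, and 1, the glutathione transferase Gstp1, was lower (−1.17). The shares of all genes were 0.735% and 3.12%, and the list median was −0.16.

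Pcolce, an enhancer of collagen processing, was at 106 and 45.1 CPM (1.22, or 0.92), and at 306 and 165 CPM in type B cells (0.89). Lpl, the lipoprotein lipase, was at 145 and 64.6 CPM (1.16, or 1.12), whereas in type B and principal cells the ratios were −0.85 and −1.70. The free RNA held Lpl at 299 and 239 CPM, and the difference between cell types was not tested. Ifi27, an interferon-inducible gene, was at 95 and 34.8 CPM (1.43, or 0.94) and was the only 1 of 30 interferon genes read.

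Other genes that were higher in PT I-PpoI belong to neighbouring segments. Slc12a3 had 430 and 5 UMIs in type A cells, of which 401 and 4 lay in the cells with RNA of another segment, and 28.6% of the PT I-PpoI UMIs lay in 1 cell. Umod was at 412 and 71.7 CPM (2.51, or 1.28 without those cells), and the free RNA held Umod at 5859 and 979 CPM. Those cells were chosen in part by Slc12a3 and Umod. The place of the Slc12a3 UMIs and the lower Umod ratio without them therefore follow in part from the choice. Egf, a growth factor precursor of the distal nephron, was at 158 and 10.2 CPM, and the free RNA held it at 2388 and 296 CPM. S100g, the calcium carrier calbindin-D9k of the connecting tubule, was at 3919 and 1703 CPM (1.20), and at 1858 and 1701 CPM without those cells (0.13), values that a few S100g-rich cells still carried. Kl, the klotho coreceptor, went from 1.27 to 0.20, and Wfdc15b, a secreted protease inhibitor-like protein, from 0.99 to 0.45. The part of free RNA and of those cells in these differences was not tested.

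S100g was read in 103 of 111 and 52 of 72 type A cells, with medians of 4.46 and 1.40 per 10000 and maxima of 293 and 175. At 2000 UMIs per cell S100g was read in 50.5% and 43.5% of type A cells and in 24.6% and 19.7% of T cells, which should lack it. Against 0.735% and 3.12% of all genes, 2 of 5 connecting and distal convoluted tubule genes read were past 2-fold higher and 0 lower. Their median of 0.14 was not stable: it was 0.91 with up to 30% mitochondrial UMIs, 1.15 under the stricter rule, 0.59 as a mean over cells and −0.11 after free RNA was subtracted. For the thick ascending limb 2 of 4 were higher and 0 lower, against the same shares of all genes. The list median was 1.46, or 0.58 without the cells with RNA of another segment, which were chosen in part by Umod.

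Among genes that were lower in PT I-PpoI, several belong to principal cells. Of 13 principal cell markers read, 6 were 2-fold lower and 0 higher, against 3.12% and 0.735% of all genes. The list median was −0.995, or −0.20 without the cells with RNA of another segment. The stricter rule, which itself leaves out every cell with an Aqp2 UMI, turned the direction of the median to 0.55. Aqp2 was at 1558 and 3574 CPM over all type A cells (−1.20). The removed cells were chosen mostly by Aqp2, so its 54.3 and 43.4 CPM without them (0.30) follow from the choice. Hsd11b2, the enzyme that shields the mineralocorticoid receptor from glucocorticoids, was at 690 and 1773 CPM (−1.36), and at 119 and 306 CPM without those cells (−1.36), but the stricter rule turned its ratio to 1.48. Stc1, the hormone stanniocalcin, was at 27.0 and 78.9 CPM (−1.54, or −2.59). In principal cells themselves the ratios of Aqp2, Hsd11b2 and Stc1 were 0.13, 0.01 and −0.51.

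Lcn2, the iron-trapping defence protein lipocalin, was at 23.2 and 133 CPM (−2.51), with 54 of 55 and 130 of 130 UMIs in the cells with RNA of another segment, and 62.3% of the wild-type UMIs lay in 1 cell. Mcoln3, an endolysosomal cation channel, went from −2.35 to −0.03 (−2.12 to 3.48) without them, at 8 and 2 UMIs. Pappa, a protease that cleaves growth factor binding proteins, went from −2.39 to −0.21 (−1.51 to 1.48), at 19 and 6 UMIs. Cav1, the coat protein of caveolae, went from −1.82 to 0.18 (−1.17 to 2.04), at 21 and 5 UMIs. The other type A cells held too few UMIs of these 3 genes to tell the size or sign of a difference. Lcn2 is known as a product of stressed intercalated cells, and 1 and 0 of its UMIs lay in the type A cells without RNA of another segment.

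Immediate early genes are switched on soon after a stimulus. Egr1, a zinc finger factor, was at 128 and 574 CPM (−2.16). Without those cells it was at 42.3 and 33.0 CPM (0.32, −0.44 to 1.24), or 71 and 16 UMIs. Fos, a subunit of the AP-1 factor, was at 329 and 675 CPM (−1.04, or 0.58 without those cells). Of 14 immediate early genes read, 4 were 2-fold lower and 0 higher, against 3.12% and 0.735% of all genes, and 4 lay above 0. The list median was −0.58, or 0.34 without those cells and 0.70 under the stricter rule. In type B cells 6 of 14 were lower, against 2.09% of all genes, with a median of −0.84.

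Cd74, the invariant chain of class II antigen presentation, was at 20.3 and 320 CPM (−3.97), with 68.6% of its wild-type UMIs in 1 cell. H2-Eb1, a class II chain, was at 12.2 and 173 CPM and H2-Aa, another, at 11 and 146 CPM, with 64.5% and 63.4% of their wild-type UMIs in 1 cell. Cd74 was the only 1 of 11 immune markers read, and the free RNA held Cd74 at 723 and 874 CPM. Of 7 class I genes read, 0 were past 2-fold, near the 0.735% and 3.12% of all genes, and 7 were below 0. The list median was −0.23, or 0.24 without the cells with RNA of another segment. B2m, the class I light chain, was at 67.1 and 107 CPM.

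Of 15 proximal tubule genes 9 could be read, and all 9 were 2-fold lower in PT I-PpoI type A cells, against 3.12% of all genes. All 9 met the limit of 50 CPM in wild type, the library where they were higher. The count is therefore in part fixed by that limit and is a description. The list median was −5.25, with the same value without the cells with RNA of another segment. Kap, the androgen-regulated kidney protein, was at 4.22 and 1195 CPM in type A cells and at 400 and 11358 CPM in the free RNA. After thinning, Kap was read in 0.901% and 68.1% of type A cells and in 3.39% and 90% of T cells. Slc34a1, the phosphate cotransporter, was at 6.33 and 249 CPM, and Slc27a2, a fatty acid transporter, had 0 UMIs in PT I-PpoI type A cells and was at least 47.7-fold lower there against a floor of 3 counts. In both libraries the Kap share of type A cells lay below that of T cells. Free RNA was estimated at 18.5% and 54.1% of T cell UMIs, against 3.45% and 15.6% of type A UMIs. The source of the Kap RNA in type A cells was not tested. The summed level of the 15 genes was 309 and 3310 CPM in type A cells and 294 and 12542 CPM in T cells.

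Slc4a4, the sodium bicarbonate cotransporter of the proximal tubule, was at 7.60 and 124 CPM (−3.99), and at 82.9 and 374 CPM in the free RNA. Of its type A UMIs, 16 of 18 and 104 of 121 lay in the cells with RNA of another segment. It was at 10.6 and 119 CPM in type B cells and at 9.23 and 268 CPM in T cells. Ntn4, a netrin of basement membranes, was at 33.4 and 126 CPM (−1.91, or −2.50 without those cells, at 9 and 15 UMIs). Adh1, an alcohol dehydrogenase, was at 50.3 and 176 CPM (−1.81, or −1.32 at 21 and 15 UMIs). Most type A UMIs of Ntn4 and Adh1 lay in the cells with RNA of another segment. Kcnj16, a basolateral potassium channel subunit, was at 59.5 and 117 CPM (−0.97, or −1.34).

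Of 32 targets of p53, the factor that responds to DNA damage, 11 were read. Of these 0 were 2-fold higher and 1 was lower, too few to set apart from the 0.735% and 3.12% of all genes, with a median of −0.50, or −0.30 without the cells with RNA of another segment. The lower gene was Gdf15, at 100 and 271 CPM (−1.43), with 233 of 237 and 260 of 264 UMIs in the cells with RNA of another segment. Mdm2, the ubiquitin ligase that restrains p53, was at 30.8 and 50.2 CPM (−0.71), and Bax, a pore-forming cell death protein, at 59.1 and 86.1 CPM (−0.55). Cdkn1a, the cell cycle inhibitor p21, was chosen after its values were seen and had a UMI in 6.31% and 4.35% of type A cells at 2000 UMIs, and in 3.39% and 3.55% of T cells. Of 33 double-strand break repair genes 2 were read, Rif1 (0.04) and Rbbp8 (0.03), so the list was mostly below what this depth could read.

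**Figure D5:**
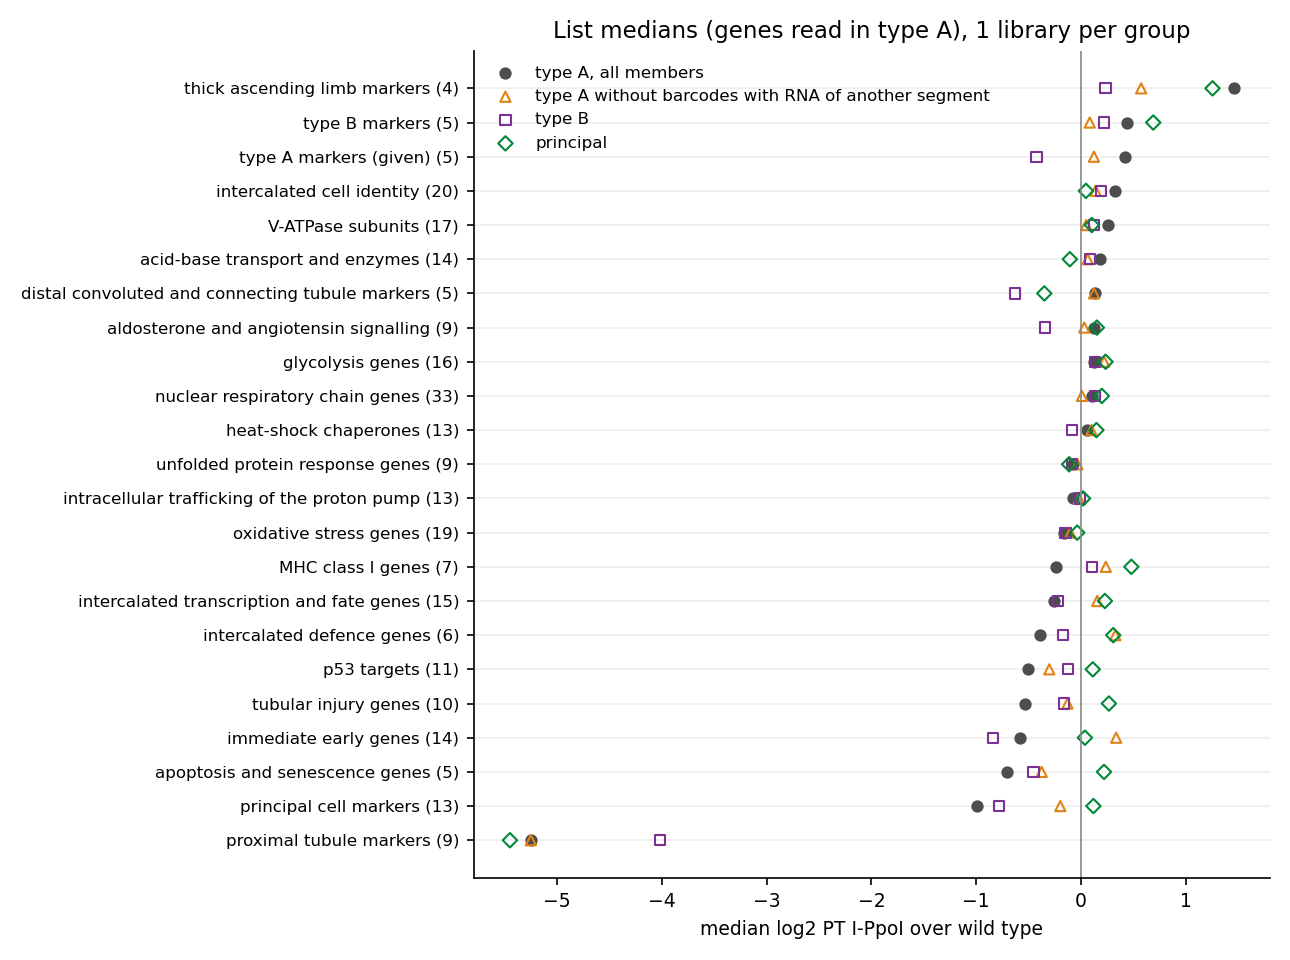
Median log2 ratio of PT I-PpoI over wild type for each gene list with 3 or more genes read in type A cells (number read in brackets), in type A cells, in type A cells without barcodes with RNA of another segment, in type B and in principal cells. The medians of principal cell markers and immediate early genes lie at −0.995 and −0.58 over all type A cells and at −0.20 and 0.34 without those barcodes, and those of proximal tubule markers at −5.25, −4.02 and −5.45 in type A, type B and principal cells.

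Of 10 tubular injury genes read, 0 were higher and 4 lower (Lcn2, Lgals3, Anxa2 and Cryab), against 0.735% and 3.12% of all genes. The list median was −0.54, or −0.13 without the cells with RNA of another segment and 0.29 under the stricter rule. Spp1, the matrix protein osteopontin, was at 1860 and 1052 CPM (0.82, or 0.37 without those cells) and was read in 88.3% and 59.4% of type A cells at equal depth. In T cells, the background for Spp1, these shares were 28.8% and 16.1%. Of 6 defence genes read, 0 were higher and 2, Lcn2 and Lgals3, were lower, against the same shares of all genes (median −0.39, or 0.33 without those cells and 0.58 under the stricter rule). Defb1 was at 4092 and 3108 CPM (0.40, or 0.36), and in type B cells its ratio was −0.17.

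Of 33 nuclear respiratory chain genes read, 0 were past 2-fold, near the 0.735% and 3.12% of all genes, and 25 were above 0, with a median of 0.11, or 0.01 without the cells with RNA of another segment. Sdhd, a subunit of succinate dehydrogenase, was the furthest from 0, at 385 and 252 CPM (0.61). Of 16 glycolysis genes read 0 were past 2-fold (median 0.13). The proton pump trafficking genes (13 read), the unfolded protein response (9) and the cell cycle (2) also had 0 genes past 2-fold, with medians of −0.07, −0.07 and −0.44.

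Of 15 transcription and fate genes read, 0 were higher and 1 was lower, too few to set apart from the 0.735% and 3.12% of all genes. The lower gene was Lgals3, the lectin galectin-3 (−1.22, or 0.42 without the cells with RNA of another segment). The list median was −0.26, or 0.16. Hes1, a Notch target, was at 204 and 302 CPM (−0.57, or 0.08). Of 9 aldosterone and angiotensin genes read, 0 were higher and 1, Hsd11b2, was lower (median 0.13). Wnk1, a kinase that controls chloride transport, was at 435 and 250 CPM (0.80, or 0.17). Of 5 apoptosis and senescence genes read 0 were higher and 1, Bcl2, was lower (−1.23), with a median of −0.70, or −0.37. The stromal list had 1 gene read, Acta2, the smooth muscle actin, at 73.1 and 6.15 CPM, with 95.4% of its PT I-PpoI UMIs in 1 cell. The endothelial and erythroid lists had 0 genes read in type A cells. Slc4a1 is also a red cell gene, and the erythroid list, with the globins, summed to 0 and 1.02 CPM in type A cells, while the whole libraries held 1 and 5662 UMIs of Hbb-bs. The endothelial list summed to 22.4 and 53.3 CPM.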

How the data were processed

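The deposited files hold UMI counts per gene and barcode, which the authors made from 10x 3' v3.1 libraries, per the labels' protocols. The submitters' processing notes name Cell Ranger 3.1, Seurat 3 and mm10, and the count matrices name Cell Ranger 4, per the file headers. The matrices were used as deposited (unfiltered barcodes, 31053 features). Of the feature IDs, 30934 were found in GENCODE M21, from which coordinates come. The members and gene lists were chosen with earlier results of these data known.

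Barcodes with 1000 UMIs, 200 genes and up to 50% mitochondrially encoded UMIs were kept, with Scrublet run at an expected rate of 0.06 but no doublet removed. Type B cells had Atp6v1g3 at 2 or more, Slc26a4 at 2 or more per 10000 with 2 or more UMIs, Slc12a1 below 8 and no Pecam1 or Ptprc, and were not type A. Principal cells had Aqp2 at 10 or more, 2 or more UMIs of Aqp3, Fxyd4 and Hsd11b2 together, Atp6v1g3 below 2, Slc26a4 below 1, Slc12a1 below 8 and no Pecam1 or Ptprc. Counts were summed per class and library, and log2 ratios of CPM were taken with 0.5 UMIs added. Genes were read at 50 CPM in the higher group and 20 UMIs over both, and counted past 2-fold. Intervals are exact conditional binomial (ratios) or Clopper-Pearson (shares) at 95%, and take UMIs as independent. The free RNA profile came from barcodes of up to 100 UMIs. No test across genes was run, and edgeR gave only TMM factors. The ratio code was tested on simulated data.

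Named genes between libraries are the 12 largest and 12 smallest ratios at 100 CPM and 20 UMIs that kept their sign and most of their UMIs after free RNA was subtracted. Between classes they are the 10 at each end. All V-ATPase, acid-base and type A marker genes could be named, and up to 5 genes furthest from 0 of each other of the 30 lists (30 or more UMIs). Mitochondrially encoded, ribosomal, haemoglobin, immunoglobulin, sex-linked marker and unnamed genes and genes of the rules were left out. Some genes that met the naming rule are not reported here. Alternatives were higher depth, 30% mitochondrial UMIs, a stricter rule, doublet removal, TMM, free RNA subtraction, means over cells, thinning and no CPM minimum. Leaving out cells with RNA of another segment was added after seeing the data. Software was Python 3.11.15, numpy 2.4.6, scipy 1.17.1, scanpy 1.11.5, R 4.3.3 and edgeR 4.0.16.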

Additional observations from a re-analysis of the deposited data

How the results depend on the processing

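No paired analysis was possible because there was 1 library per group, and no replicate could be left out. Removing Scrublet doublets, TMM factors, subtracting free RNA and a limit of 30% mitochondrial UMIs moved no count or share past its margin (1.5 times for counts, the 95% interval for shares). A stricter rule (3 or more UMIs of Slc4a1, Aqp6 and Kit summed, 0 of Slc26a4 and Aqp2) left 44 and 42 type A cells: 70 genes were then higher and 55 lower in PT I-PpoI, and type A cells were 0.867% and 0.403% of kept barcodes, 22.8% and 28.6% of type A and B cells, and 6.92% and 12.2% with principal cells added. It reversed Pappa (1.49), Egr1 (0.87), Lgals3 (0.50), Hsd11b2 (1.48), Npnt (0.41), Zfp36 (0.41) and Fos (0.73). Thinning to 2000 UMIs left 4764 and 7822 barcodes, and the rules were applied anew to the thinned counts. They selected 131 and 74 type A, 144 and 64 type B and 513 and 227 principal cells, so the cells were not those of the main values. Thinning gave 121 genes higher in PT I-PpoI, 72 higher than in type B cells and 223 lower than in principal cells. The type A shares were 2.75% and 0.946% of the thinned barcodes and, in wild type, 53.6% of type A and B cells. Without a CPM minimum 219 genes were higher and 404 lower in PT I-PpoI. The mean over cells gave 254 genes lower than in principal cells, and a minimum of 2000 UMIs gave a wild-type share of 0.882%. Without the cells with RNA of another segment, an alternative chosen after seeing the data, 48 genes were lower in PT I-PpoI, 84 lower than in type B cells and 433 lower than in principal cells. The shares were then 1.75% and 0.499% of kept barcodes, 33.1% of wild-type A and B cells, and 13.1% and 14.6% with principal cells added. It reversed Egr1 (0.32), Cav1 (0.18), Fxyd4 (0.14), Btc (0.41), Lgals3 (0.42), Kcne1 (0.0341), Aqp2 (0.30), Zfp36 (0.22), Ier2 (0.0105) and Fos (0.58). The counting intervals of Egr1, Cav1, Fxyd4 and Btc then spanned both signs, and Cav1 and Btc held 5 and 2 wild-type UMIs. The cause of these shifts was not tested. Depth limits genes under 50 CPM, and the wild-type values rest on 975649 UMIs against 2368144.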
